A study of Mus musculus with 21 samples.

Results

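The elongator methionine tRNAs are the nuclear tRNAs with anticodon CAT that deliver methionine to internal AUG codons. All rows named Met-CAT were taken from both deposited count tables, leaving out the initiator rows (iMet-CAT) and the mitochondrial row. This gave 6 isodecoders, tRNAs that share an anticodon but differ elsewhere in sequence: Met-CAT-1, Met-CAT-2, Met-CAT-3-1, Met-CAT-4-1, Met-CAT-5-1 and Met-CAT-6-1. They are 6 of 209 tRNAs in the cerebrum table and 6 of 208 in the cerebellum table, and all 6 passed the filter on low counts in both.

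Cells keep separate tRNAs for the same methionine codon. The initiator tRNA sets the first AUG of a reading frame at the ribosome's P site, the elongator tRNAs read every later AUG, and a further tRNA encoded in the mitochondrial genome serves the mitochondrial ribosome. Nuclear tRNA genes of both kinds are transcribed by RNA polymerase III from promoter elements inside the gene, whereas the mitochondrial tRNA is cut from a long transcript made by the mitochondrial polymerase.

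The libraries came from C57BL/6J mice fed ad libitum, all of them treated with tamoxifen. The mutant mice carried a Polr3a mutation whose recombination was induced at postnatal day 28, and the controls were wildtype mice given tamoxifen. Polr3a codes for the largest subunit of that polymerase. Brain tissue was frozen at postnatal day 42, and tRNA was sequenced by QuantM-tRNA-seq, a library method designed for tRNA. Cerebrum gave 4 mutant and 6 wildtype libraries, and cerebellum gave 5 mutant and 6 wildtype libraries. Each group held libraries from males and females. The sources used here name neither the driver of the recombinase nor the share of cells recombined. Nothing in the labels states that each library is a different animal, and the p-values therefore cover the spread between libraries, which may be partly technical. In such tissue samples, fewer cells of a type and less tRNA per cell cannot be told apart, and a tRNA library holds no cell type markers with which to check the tissue.

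Cerebrum libraries held 4365247 to 7614658 counts. Cerebellum libraries held 1628057 to 7158467 counts in separate depth classes: mutant 1 and wildtype 1, 2, 3, 4 and 6 were shallow, and mutants 2 to 5 and wildtype 5 were deep. Genotype and depth in cerebellum were therefore nearly the same split. Mitochondrial tRNAs took 12.8% to 15.7% of counts in cerebrum mutants and 10.4% to 11.7% in cerebrum wildtype, and 14.0% to 21.2% against 12.5% to 14.4% in cerebellum. Levels below are CPM, counts scaled to a common library size by TMM, which sets the bulk of tRNAs equal between libraries, so they are levels relative to the other tRNAs.

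In the names of the isodecoders the first number is the isodecoder and a second number, where present, the gene copy. Met-CAT-1 and Met-CAT-2 carry no copy number. The RefSeq annotation (GRCm38.p6) lists 16 nuclear methionine CAT tRNA genes of 72 or 73 bases, 11 of them on chromosome 13 and 3 on chromosome 15. It does not separate elongator from initiator genes and does not use the isodecoder names, so no row was assigned a position. The one methionine tRNA whose sequence could be read from the annotation used here is the mitochondrial one, which serves as a comparator for the family below. Its gene mt-Tm lies on the plus strand of the mitochondrial chromosome, positions 3845 to 3913 (mm10), and has 69 bases. It is shown with the CAT anticodon, bases 31 to 33, in capitals:
mt-Tm: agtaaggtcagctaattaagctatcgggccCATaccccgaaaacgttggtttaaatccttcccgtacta

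The family was dominated by a pair of isodecoders. In wildtype cerebrum, Met-CAT-1 held 70.1% ± 1.52 (SD, n = 6) of the family's counts and Met-CAT-2 held 21.3% ± 0.682 (SD, n = 6). Met-CAT-3-1 held 7.50% ± 0.822 (SD, n = 6). The remaining isodecoders were minor: Met-CAT-4-1 held 0.971% ± 0.183, Met-CAT-6-1 0.109% ± 0.0243 and Met-CAT-5-1 0.0525% ± 0.0114 (SD, n = 6 each). The same order of shares held in the wildtype cerebellum means, with Met-CAT-1 at 70.6% ± 1.55, Met-CAT-4-1 at 1.15% ± 0.198 and Met-CAT-5-1 at 0.0513% ± 0.00967 (SD, n = 6 each). The lowest of these values rest on small counts, 24 to 145 of Met-CAT-5-1 and 34 to 142 of Met-CAT-6-1 per library. Reads that fit several near-identical isodecoders could be split between them, and the sources used here do not give the authors' rule for such reads, so counts of single isodecoders are uncertain.

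**Figure D1:**
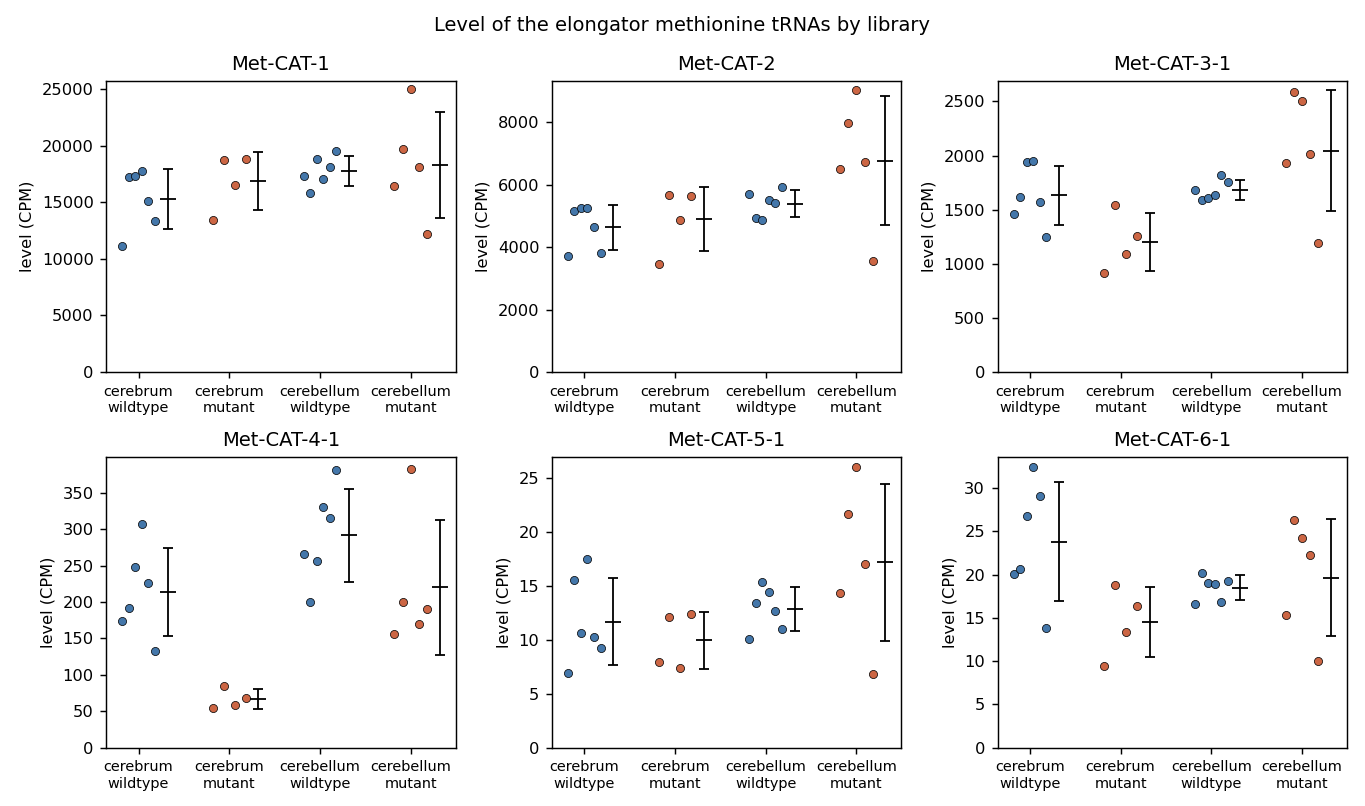
Level of each elongator methionine tRNA in CPM (TMM scaling over all 21 libraries, linear axes from 0), 1 point per library, with the group mean and SD as a bar beside the points. Met-CAT-4-1 lies between 54.4 and 85.1 CPM in the 4 cerebrum mutants and between 133 and 307 CPM in the 6 cerebrum wildtype libraries, while Met-CAT-1 and Met-CAT-2 overlap between genotypes in both tissues.

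The cerebrum comparison asked how the Polr3a mutation altered this family relative to the tRNA pool. Met-CAT-4-1, Met-CAT-6-1 and Met-CAT-3-1 fell, and Met-CAT-1, Met-CAT-2 and Met-CAT-5-1 did not pass the test. Thus 3 of 6 isodecoders passed, all lower, where 11.5% of the 208 tRNAs tested passed as lower and 19.7% passed in either direction (edgeR's quasi-likelihood F test with p adjusted by Benjamini-Hochberg, threshold 0.05). The median log2 fold change over all 208 was −0.03.

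Met-CAT-4-1 stood at 46.1, 75.4, 51.1 and 58.9 CPM in mutants 1 to 4. In wildtype its lowest value was 121, its median 188 and its highest 281 CPM. Every mutant lay below every wildtype library, a separation that 9.62% of the 208 tRNAs showed in this direction. The level was 57.9 ± 12.8 CPM (SD, n = 4) in mutants and 195 ± 52.9 CPM (SD, n = 6) in wildtype, a 3.37-fold fall. The test gave −1.75 ± 0.21 SE on the log2 scale (edgeR adjusted p = 4.72e-06). This was the lowest log2 fold change of the 208 tRNAs, and leaving out any single library kept that of Met-CAT-4-1 between −1.91 and −1.61, past the threshold each time.

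Met-CAT-3-1, the third most abundant isodecoder, was at 772, 1368, 949 and 1090 CPM in mutants 1 to 4. Its wildtype libraries ran from 1135 through a median of 1483 to 1784 CPM. Mutants 1, 3 and 4 lay below every wildtype library and mutant 2 overlapped with them. The fall was 1.43-fold (log2 fold change −0.51 ± 0.16 SE, edgeR adjusted p = 0.0267). It was lost without mutant 1, mutant 3, wildtype 1 or wildtype 3, with adjusted p between 0.00667 and 0.0982 over the libraries left out.

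Met-CAT-6-1, a minor isodecoder, gave 8.02, 16.7, 11.6 and 14.3 CPM in mutants 1 to 4 and 12.6, 22.0 and 29.7 CPM as the lowest, median and highest of wildtype. All 4 mutants lay below the wildtype median, and mutants 2 and 4 overlapped with the lowest wildtype library. It fell 1.71-fold (log2 fold change −0.78 ± 0.25 SE, edgeR adjusted p = 0.0296). Without mutant 1, mutant 3, wildtype 3, wildtype 4 or wildtype 5 it no longer passed, the adjusted p reaching 0.0931. Over these libraries 1 to 3 isodecoders passed as lower: only Met-CAT-4-1 passed without mutant 1, mutant 3 or wildtype 3.

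The abundant isodecoders showed no such difference. Met-CAT-1 was at 11373, 16603, 14438 and 16345 CPM in mutants 1 to 4, against 11370, 14185 and 16270 CPM as the lowest, median and highest of wildtype. Its log2 fold change was 0.07 ± 0.14 SE (edgeR adjusted p = 0.789), and that of Met-CAT-2 was 0.01 ± 0.14 SE (edgeR adjusted p = 0.965). Met-CAT-5-1 lay at 6.46 to 10.8 CPM in mutants and 7.06 to 16.0 CPM in wildtype, and its value of −0.30 ± 0.26 SE did not pass (edgeR adjusted p = 0.442).

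The sum of the 6 isodecoders did not pass. The family made up 1.45%, 2.62%, 2.62% and 2.68% of nuclear tRNA counts in mutants 1 to 4, and 1.76% to 2.75% with a median of 2.39% in wildtype. Mutant 1 was the lowest of the 10 cerebrum libraries, and the other mutants fell among the wildtype values. The log2 fold change of the family total was −0.07 ± 0.14 SE with a 95% interval of −0.34 to 0.20 (edgeR adjusted p = 0.898 in the fit over 72 anticodons, of which 11.1% passed).

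TMM scaling removes a change shared by most tRNAs, and the call of the family total depended on it. Scaled to the mitochondrial tRNA total, the median of all 208 tRNAs moved to −0.41, and 53.4% of them passed, all lower. On that scale 5 of 6 isodecoders passed as lower, with Met-CAT-4-1 at a log2 fold change of −2.15 ± 0.21 SE, Met-CAT-2 at −0.38 ± 0.15 SE, and Met-CAT-1 at −0.32 ± 0.14 SE without passing (edgeR adjusted p = 0.0531). The family total fell by 0.38 on the log2 scale (± 0.14 SE, edgeR adjusted p = 0.0343), where the median anticodon was at −0.29 and 36.1% of 72 passed. Scaled to the bacterial tRNA spike-in, whose amount per library the sources used here do not give, the median of all tRNAs was −0.36 and 35.6% passed as lower. There Met-CAT-4-1 (−2.11), Met-CAT-6-1 (−1.12) and Met-CAT-3-1 (−0.85) passed as lower, and Met-CAT-1 (−0.25), Met-CAT-2 (−0.31), Met-CAT-5-1 (−0.63) and the family total (−0.31, where 6.94% of 72 anticodons passed) did not.

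**Figure D2:**
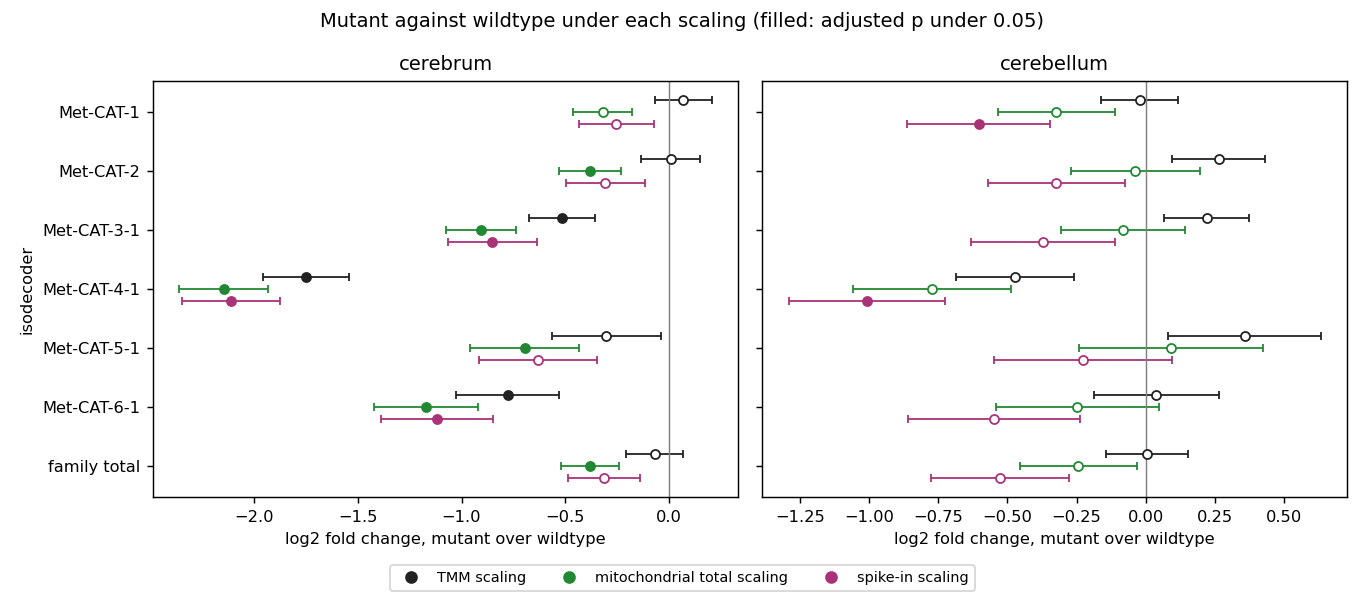
Log2 fold change of each isodecoder and of the family total, mutant over wildtype, in cerebrum (left) and cerebellum (right) under 3 scalings; points are estimates, bars are 1 SE, and filled points have an edgeR adjusted p under 0.05. In cerebrum Met-CAT-4-1 lies near −2 on every scaling, from −2.15 to −1.75, and Met-CAT-1, Met-CAT-2 and the family total shift from between −0.07 and 0.07 to between −0.38 and −0.25.

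The make-up of the family does not depend on how libraries are scaled, so each isodecoder's share was compared as well. The share of Met-CAT-4-1 was 0.305%, 0.327%, 0.260% and 0.263% of the family in cerebrum mutants 1 to 4. In wildtype it was 0.717% at the lowest, 1.03% at the median and 1.21% at the highest. Every mutant was below every wildtype library, also for Met-CAT-3-1, at 4.82% to 5.93% against 6.67% to 8.86%, and for Met-CAT-6-1, at 0.0530% to 0.0722% against 0.0744% to 0.135%. This separation was seen in the lower direction for 19.7% of the 178 isodecoders in families with at least 2 members.

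The shares of these 3 isodecoders passed as lower, where 14% of the 178 passed as lower. Relative to the family's own change, the log2 change was −1.76 ± 0.22 SE for Met-CAT-4-1 (edgeR adjusted p = 2.63e-09), −0.79 ± 0.26 SE for Met-CAT-6-1 (edgeR adjusted p = 0.0243) and −0.52 ± 0.18 SE for Met-CAT-3-1 (edgeR adjusted p = 0.0284). The other shares did not pass, with Met-CAT-1 at 0.06 ± 0.17 SE and Met-CAT-5-1 at −0.31 ± 0.28 SE. These SE rest on the fit of levels, not on the spread of the share between libraries. From the log2 shares of the libraries themselves, Met-CAT-1 was at 0.07 ± 0.018 SE, so not passing does not show an unchanged share. Met-CAT-1 nevertheless filled more of the family on average, 73.3% ± 1.36 (SD, n = 4) in mutants against 70.1% ± 1.52 (SD, n = 6) in wildtype, and mutants 1, 3 and 4 lay above every wildtype library. An exact two-sided permutation test of the log2 share over libraries, unadjusted over the 12 shares and tissues it was run for, gave p = 0.0190 for Met-CAT-1. The exact test gave p = 0.00952, the smallest that 210 splits allow, for Met-CAT-3-1, Met-CAT-4-1 and Met-CAT-6-1. It was run on this family only, so no share over all isodecoders can be set beside it. Shares of 1 family sum to the whole, so these p-values are not independent. Leaving out single libraries, 1 to 3 shares passed as lower: Met-CAT-4-1 each time, Met-CAT-3-1 and Met-CAT-6-1 not without mutant 3, mutant 4, wildtype 1 or wildtype 5, and Met-CAT-3-1 not without wildtype 3. With Met-CAT-1 left out of the family, 1 share passed as lower, that of Met-CAT-4-1, where 13% of 177 did, and Met-CAT-3-1 (−0.37) and Met-CAT-6-1 (−0.63) did not. With limma's comparison against the average isodecoder, 1 share passed as lower, where 13.5% of 178 did, and those of Met-CAT-1 and Met-CAT-2 passed as higher, where 8.99% did.

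**Figure D3:**
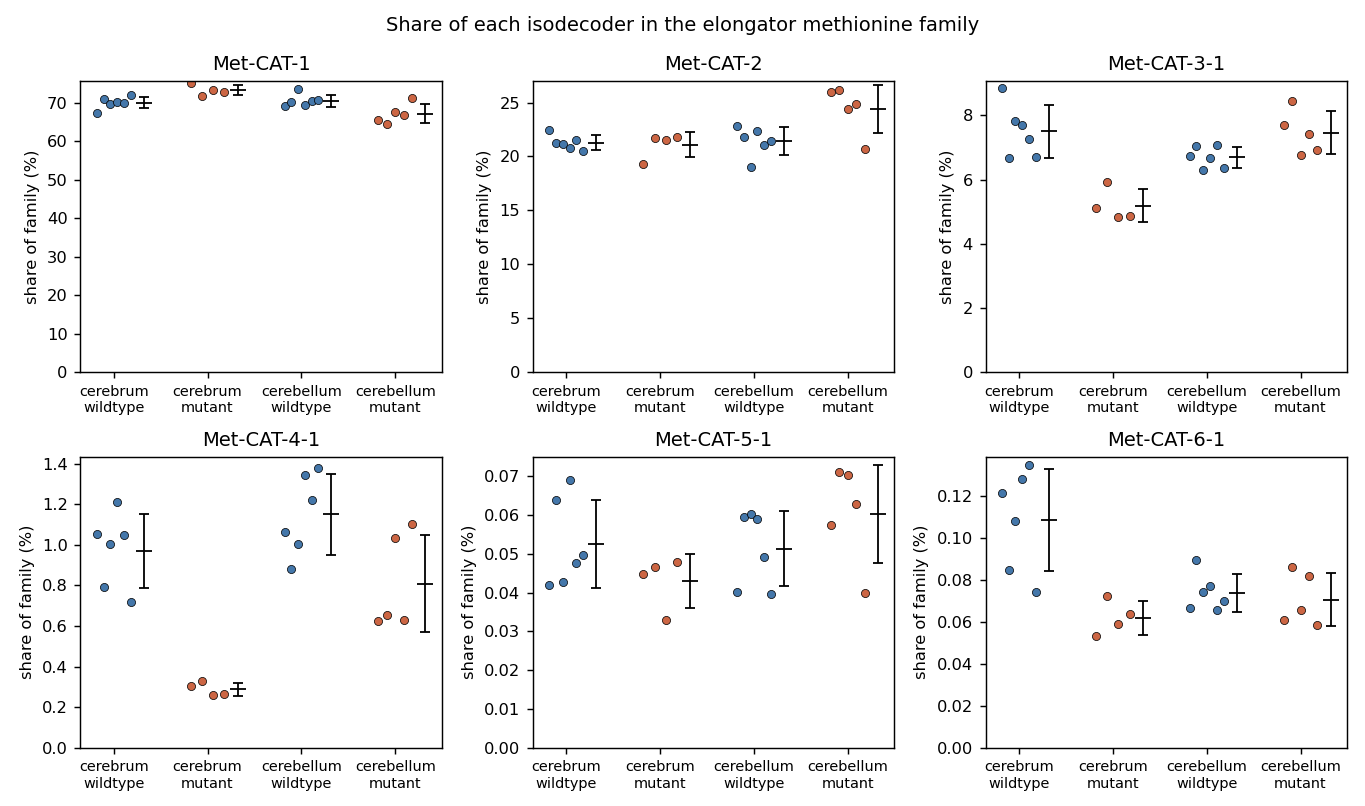
Share of each isodecoder in the counts of the elongator methionine family (percent, linear axes from 0), 1 point per library, with the group mean and SD as a bar beside the points. In cerebrum all 4 mutants lie below all 6 wildtype libraries for Met-CAT-3-1, Met-CAT-4-1 and Met-CAT-6-1, and in cerebellum mutants 3 and 5 keep a Met-CAT-4-1 share of 1.03% and 1.11%, within the wildtype range.

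Set against the most abundant isodecoder in the same library, there were 3.54 to 4.54 counts of Met-CAT-4-1 per 1000 counts of Met-CAT-1 in cerebrum mutants and 9.96 to 17.2 in cerebrum wildtype. In cerebellum the same ratio was 9.39 to 15.5 in mutants and 12.6 to 19.5 in wildtype, so the groups overlapped there.

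In cerebellum none of the 6 isodecoders passed the genotype test, where 2.48% of 202 tRNAs passed. At an unadjusted p under 0.05 there was 1 isodecoder, Met-CAT-4-1, where 40 of the 202 tRNAs were. DESeq2 and limma-voom also called none of the 6. Of the 202 tRNAs, DESeq2 called 6.44% as higher and 4.95% as lower, and limma-voom 0.99% and 3.47%. Met-CAT-4-1 was at 170, 219, 392, 186 and 211 CPM in mutants 1 to 5, and its wildtype values had a lowest of 221, a median of 326 and a highest of 425 CPM. Mutants 1, 2, 4 and 5 lay below every wildtype library, and mutant 3 lay above the wildtype median. The log2 fold change was −0.47 ± 0.21 SE (edgeR adjusted p = 0.220). Without mutant 3 it was −0.73 ± 0.17 SE and passed (edgeR adjusted p = 0.0114), the only cerebellum library whose removal gave a call for Met-CAT-4-1.

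Depth moved with genotype in these libraries, and its part in the cerebellum values was not tested beyond the following. In the shallow class the single mutant had 170 CPM of Met-CAT-4-1 and the 5 wildtype libraries 221 to 425 CPM. In the deep class the 4 mutants had 186 to 392 CPM and the single wildtype library 352 CPM. With depth class in the fit, the log2 fold change was −0.70 ± 0.29 SE and did not pass (edgeR adjusted p = 0.193).

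Met-CAT-2 and Met-CAT-3-1 were spread differently over the cerebellum libraries, and neither passed. Met-CAT-2 was at 7057, 8756, 9259, 7348 and 3950 CPM in mutants 1 to 5, against 5450, 6120 and 6619 CPM as the lowest, median and highest of wildtype. Met-CAT-3-1 was at 2098, 2832, 2564, 2198 and 1322 CPM in mutants, against 1762, 1877 and 2035 CPM in wildtype. For both, mutants 1 to 4 lay above every wildtype library and mutant 5 below every one. The log2 fold changes were 0.26 ± 0.17 SE for Met-CAT-2 (edgeR adjusted p = 0.424) and 0.22 ± 0.15 SE for Met-CAT-3-1 (edgeR adjusted p = 0.492). Without mutant 5, 3 of 6 isodecoders passed as higher: Met-CAT-2 at 0.44, Met-CAT-3-1 at 0.38 and Met-CAT-5-1 at 0.59 (edgeR adjusted p = 0.0107, 0.0238 and 0.0472), where 7.35% of the 204 tRNAs in that fit passed as higher. Met-CAT-1 at −0.02 ± 0.14 SE, Met-CAT-5-1 at 0.36 ± 0.28 SE and Met-CAT-6-1 at 0.04 ± 0.23 SE did not pass with all libraries.

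The family made up 3.30%, 4.01%, 4.47%, 3.59% and 2.23% of nuclear tRNA counts in cerebellum mutants 1 to 5, and 2.92% to 3.51% with a median of 3.33% in wildtype. Mutants 2, 3 and 4 were above every wildtype library and mutant 5 below every one. The log2 fold change of the total was 0.00 ± 0.15 SE with a 95% interval of −0.29 to 0.29 (edgeR adjusted p = 0.994, and 0 of 71 anticodons passed, 17 at an unadjusted p under 0.05).

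Scaling mattered in cerebellum too. With mitochondrial total scaling the median of all 202 tRNAs was −0.37 and 26.2% passed, all lower, but none of the 6 isodecoders did, Met-CAT-4-1 being at −0.77 ± 0.29 SE (edgeR adjusted p = 0.0508). With spike-in scaling the median was −0.59 and 41.1% passed as lower, among them Met-CAT-4-1 at −1.01 ± 0.28 SE and Met-CAT-1 at −0.60 ± 0.26 SE (edgeR adjusted p = 0.00993 and 0.0495), that is 2 of 6. The family total, at −0.53, did not pass there, where 22.5% of 71 anticodons did.

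Within the cerebellum family no share passed, where 3.47% of 173 isodecoders did. DESeq2 was not run on shares. Limma's version also called none of the 6, and how many of all isodecoders it called is not given here. The edgeR test was past an unadjusted p of 0.05 for Met-CAT-4-1 alone among the 6, where 18 of 173 isodecoders were. The Met-CAT-4-1 share was 0.624%, 0.655%, 1.03%, 0.629% and 1.11% in mutants 1 to 5, and 0.883%, 1.14% and 1.38% at the lowest, median and highest of wildtype. Mutants 1, 2 and 4 were below every wildtype library, and all 5 were below the wildtype median. The log2 change was −0.53 ± 0.20 SE (edgeR adjusted p = 0.170), and the exact two-sided permutation test gave an unadjusted p = 0.0433, where 462 splits allow no p below 0.00433. By the same exact permutation test, again unadjusted, the shares of Met-CAT-1 (log2 change −0.07, p = 0.0303), Met-CAT-2 (0.19, p = 0.0303) and Met-CAT-3-1 (0.15, p = 0.0433) gave p as small or smaller. The exact test was run on this family only, and the shares of 1 family are not independent of each other. The Met-CAT-4-1 share passed in edgeR's test without mutant 3 or mutant 5, the adjusted p over the libraries left out running from 0.00451 to 0.632, and also with Met-CAT-1 left out of the family (−0.71, edgeR adjusted p = 0.0357).

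Whether the genotype effect itself differed between tissues was tested by fitting the 21 libraries together over the 204 tRNAs that both tables list. Met-CAT-4-1 passed, its log2 fold change being 1.28 ± 0.32 SE higher in cerebellum than in cerebrum (edgeR adjusted p = 0.0133), where 4.9% of 204 tRNAs passed, all of them higher. It was the largest such difference of the 204 tRNAs and stayed past the threshold without any single library, at 0.98 to 1.42. The shift of Met-CAT-4-1 within its family also differed, by 1.24 ± 0.31 SE (edgeR adjusted p = 0.00328, where 3.45% of 174 isodecoders passed). With spike-in scaling the difference was 1.10 ± 0.36 SE and did not pass (edgeR adjusted p = 0.512), on a scale where no tRNA passed as higher. The share's difference fell short of the threshold without Met-CAT-1 in the family (0.91, edgeR adjusted p = 0.0803) and with limma's test (0.90, adjusted p = 0.119). Depth, which nearly followed genotype in cerebellum, was in none of these joint fits.

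The other isodecoders did not pass this test of the difference. Met-CAT-3-1 was at 0.73 ± 0.24 SE (edgeR adjusted p = 0.0665) and Met-CAT-6-1 at 0.81 ± 0.35 SE (edgeR adjusted p = 0.225). Met-CAT-3-1 passed without cerebellum mutant 5, cerebrum mutant 2 or cerebrum wildtype 6, and Met-CAT-6-1 without cerebellum mutant 5. Both also passed when same-numbered libraries of a genotype were taken as a block. The family total differed by 0.10 ± 0.20 SE (edgeR adjusted p = 0.968, where 1.39% of 72 anticodons passed).

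Wildtype cerebellum was also compared with wildtype cerebrum. None of the 6 isodecoders passed, where 71.1% of 204 tRNAs did, and 1 was at an unadjusted p under 0.05, where 150 of the 204 were. That one was Met-CAT-4-1, at 199 to 381 CPM with a median of 291 in cerebellum and 133 to 307 CPM with a median of 210 in cerebrum, both on the joint scale. Its log2 difference, cerebellum minus cerebrum, was 0.45 ± 0.21 SE (edgeR adjusted p = 0.0516), so close to the threshold that it passed in 9 of 21 fits with a library left out, and with DESeq2 (0.50, adjusted p = 0.0204). The differences of Met-CAT-1, Met-CAT-2, Met-CAT-3-1 and Met-CAT-5-1 were 0.21, 0.22, 0.04 and 0.13, and that of Met-CAT-6-1 was −0.37 (SE 0.14 to 0.27). For the family total it was 0.24 ± 0.13 SE (edgeR adjusted p = 0.0966, where 75% of 72 anticodons passed). Met-CAT-4-1 and the family total did pass when same-numbered libraries of a genotype were taken as a block.

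The family total kept the direction of its tissue difference in 6 of 7 alternatives, and spike-in scaling turned it round. With spike-in scaling the family total was lower in cerebellum by a log2 difference of −0.68 (edgeR adjusted p = 0.00108) and 5 of 6 isodecoders passed as lower, Met-CAT-4-1 at −0.45 being the exception, where 67.6% of 204 tRNAs and 68.1% of 72 anticodons passed as lower. The spike-in took 0.222% to 0.316% of counts in wildtype cerebrum and 0.401% to 0.940% in wildtype cerebellum. With library totals the family total was higher by 0.49 (edgeR adjusted p = 0.00439) and 3 of 6 isodecoders passed as higher, where 44.4% of 72 anticodons and 41.7% of 204 tRNAs did. Shares within the family did not pass between tissues either, where 27% of 174 isodecoders passed. The lowest adjusted p among them was that of Met-CAT-6-1, whose share was 0.109% ± 0.0243 in cerebrum and 0.0737% ± 0.00882 in cerebellum (SD, n = 6 each). Its log2 difference was −0.57 ± 0.25 SE (edgeR adjusted p = 0.0812, unadjusted p = 0.0252). No other share of the family was under an unadjusted 0.05, where 62 of 174 isodecoders were.

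The initiator and mitochondrial methionine tRNAs were set beside the family. In cerebrum none of the 3 initiator rows passed the genotype test, with log2 fold changes of 0.16 to 0.19. The mitochondrial methionine tRNA was higher in cerebrum mutants (0.44 ± 0.12 SE, edgeR adjusted p = 0.0106), where 8.17% of 208 tRNAs passed as higher. That call was absent under mitochondrial scaling (0.05, edgeR adjusted p = 0.730) and spike-in scaling (0.11, edgeR adjusted p = 0.632). This tRNA is itself part of the mitochondrial total used as the scale. Under either scaling 0% of the 208 tRNAs passed as higher. Mitochondrial tRNAs as a whole took a larger part of counts in these mutants, as given above. In cerebellum none of these 4 tRNAs passed, the initiator rows lying between −0.27 and −0.14, but iMet-CAT-1 passed as lower under mitochondrial scaling (−0.64, edgeR adjusted p = 0.0235) and spike-in scaling (−0.85, edgeR adjusted p = 0.0153). Between wildtype tissues iMet-CAT-2-1 and iMet-CAT-3-1 were lower in cerebellum, by log2 differences of −1.60 and −0.95, and iMet-CAT-1, the main initiator row, did not pass (−0.19).

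The balance of elongator to initiator tRNA is a ratio inside each library and needs no scaling. It was 0.791, 1.32, 1.08 and 1.21 in cerebrum mutants 1 to 4 and 0.994 to 1.55 with a median of 1.22 in cerebrum wildtype. In cerebellum it was 2.11, 2.68, 3.30, 2.18 and 0.859 in mutants 1 to 5 and 1.16 to 2.14 with a median of 1.77 in wildtype. Cerebrum groups overlapped, and in cerebellum mutants 2, 3 and 4 lay above every wildtype library while mutant 5 lay below every one. Elongator counts per count of the mitochondrial methionine tRNA were 2.63 to 4.52 in cerebrum mutants against 3.29 to 6.29 in wildtype, and 2.61 to 9.32 against 5.89 to 7.71 in cerebellum. These ratios are descriptions and were not tested.

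**Figure D4:**
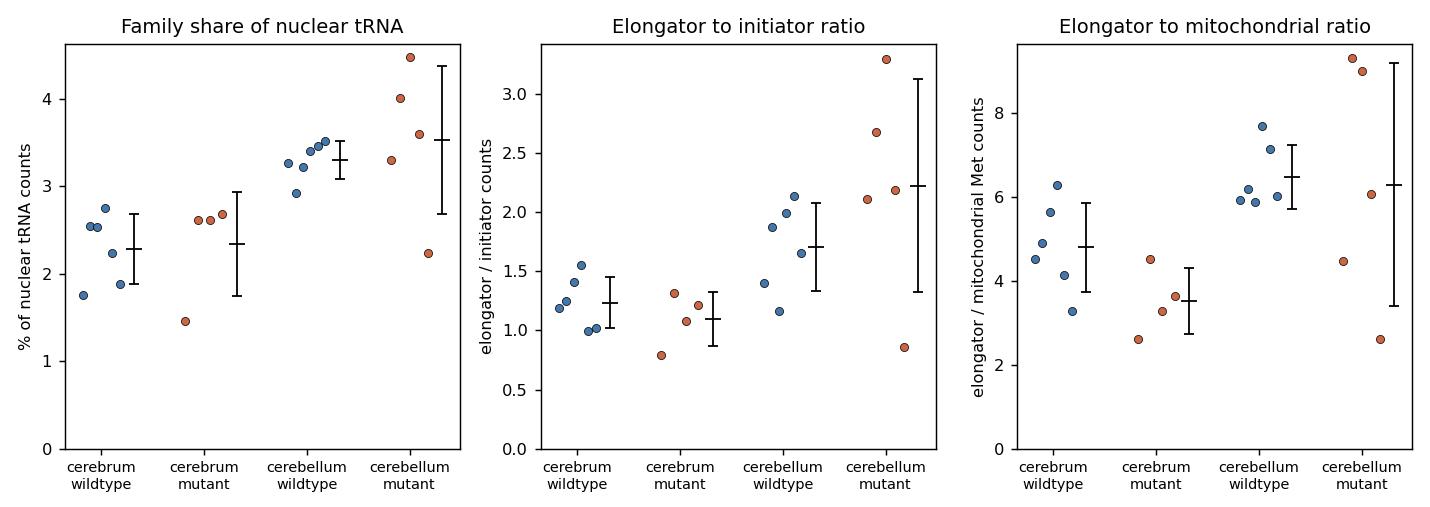
The elongator methionine family as a percentage of nuclear tRNA counts (left), per count of initiator methionine tRNA (middle) and per count of mitochondrial methionine tRNA (right), 1 point per library, with the group mean and SD as a bar. Cerebrum mutant 1 (1.45%) and cerebellum mutant 5 (2.23%) have the lowest family percentage of their tissues, and cerebellum mutant 5 also has the lowest elongator to initiator ratio of its tissue, 0.859.

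Over the 10 cerebrum libraries the Pearson r of log2 CPM between Met-CAT-1 and Met-CAT-2 was 0.93, and between Met-CAT-1 and Met-CAT-4-1 it was 0.10. Met-CAT-4-1 was closer to Met-CAT-3-1 (0.90) and Met-CAT-6-1 (0.89), the members that also fell. Over the 11 cerebellum libraries Met-CAT-2 and Met-CAT-3-1 had r = 0.97, while Met-CAT-4-1 had r = 0.07 with Met-CAT-3-1 and 0.56 with Met-CAT-1. With genotype means removed, r between Met-CAT-1 and Met-CAT-4-1 in cerebrum was 0.70, that of Met-CAT-4-1 was 0.90 with Met-CAT-3-1 and 0.94 with Met-CAT-6-1, and in cerebellum Met-CAT-4-1 had r = 0.33 with Met-CAT-3-1 and 0.61 with Met-CAT-1. The low value for Met-CAT-1 and Met-CAT-4-1 in cerebrum thus includes the difference between genotypes already described. These values are descriptions: the points share libraries, their scaling and the genotype groups.

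By the same measure the tRNAs whose cerebrum pattern was most like Met-CAT-4-1 were Val-AAC-4-1 (r = 0.98), Leu-CAA-4-1 (0.97) and Val-CAC-1-1 (0.96). For Met-CAT-3-1 they were Met-CAT-6-1 (0.94), Tyr-GTA-5-1 (0.92) and Phe-GAA-3-1 (0.92). For Met-CAT-6-1 they were Arg-TCG-4-1 (0.96), Phe-GAA-2-1 (0.95) and Met-CAT-3-1 (0.94). Over all 21 libraries with tissue means removed, the anticodon totals most like the family total were Ile-TAT (0.91), Trp-CCA (0.88) and Ile-AAT (0.83).

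The authors also deposited their own comparisons. In the authors' deposited table of cerebrum isodecoders the log2 fold changes had the opposite sign to the counts (r = −0.999 with the count ratio of mutant to wildtype over 210 rows), so the values that follow are turned to mutant minus wildtype. By the authors' deposited table Met-CAT-4-1 was then at −2.16, Met-CAT-6-1 at −1.19, Met-CAT-3-1 at −0.93, Met-CAT-5-1 at −0.71, Met-CAT-2 at −0.41 and Met-CAT-1 at −0.34 in cerebrum, and all 6 had an adjusted p under 0.05. The authors' values lay close to those of the fit scaled to the mitochondrial total, at −2.15 for Met-CAT-4-1 and −0.32 for Met-CAT-1. With TMM these were −1.75 and 0.07. On the mitochondrial scale 53.4% of 208 tRNAs passed, all lower. The sources used here do not give the authors' scaling. What share of all rows passed in the authors' comparisons was not counted. The authors' deposited table of cerebrum anticodons gave −0.40 for the family total (adjusted p = 0.0220). In the authors' deposited table for cerebellum, Met-CAT-4-1 was at −0.73 with an adjusted p of 0.0419, and the other isodecoders, from −0.28 to 0.14, did not pass. The authors' deposited table of cerebellum anticodons put the family total at −0.19 (adjusted p = 0.573).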

How the data were processed

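For each tissue the authors deposited 1 table of raw counts, reads per tRNA without normalization; every count column carried the name of 1 sample. The submitters' processing notes name cutadapt, Bowtie2, featureCounts, DESeq2 and mm10, with no versions, and the sources used here do not give the settings. Reads shared by near-identical isodecoders bear on every single-isodecoder value. The authors' deposited comparison tables hold log2 fold changes with standard errors, and adjusted p-values, per the file headers.

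Library sizes and tests left out the spike-in row. Each whole table was fitted with edgeR 4.0.16 (R 4.3.3, limma 3.58.1), using filterByExpr by group at a minimum count of 10, TMM scaling and robust two-sided quasi-likelihood F tests, with Benjamini-Hochberg adjustment at 0.05. A standard error is the log2 fold change over the square root of F, and 95% intervals of fold changes are normal intervals from it. Family totals were fitted among all anticodons. Tissue differences and differences between genotype effects came from 1 fit of all 4 groups. Shares were tested with edgeR's diffSpliceDGE, which sets an isodecoder's change against that of its family total, itself included, over all families with at least 2 members. Limma's diffSplice instead uses the weighted average isodecoder. The SE of edgeR's share test rest on the spread of levels in the fit, not on that of the share.

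All 6 isodecoders are named in each comparison, beside all iMet-CAT rows and mitochondrial Met-CAT; likeness is the Pearson r of log2 CPM with a prior count of 2. The members and lists were chosen with earlier results of these data known. The steps were tested on simulated counts. Alternatives for scaling were RLE size factors, library totals, mitochondrial totals and the spike-in. Alternative tests and filters were DESeq2 1.42.0, limma-voom, a mean count of 50 or more, and no filter on low counts. The others were sex or depth class (boundary 4000000 counts) as a covariate, nuclear tRNAs only, wildtype groups only, a replicate block, the family without Met-CAT-1, and each library left out. Depth class in the share test was added after the values were seen. No 2 replicates agreed within sampling noise (lowest chi-square per degree of freedom 44.3).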

Additional observations from a re-analysis of the deposited data

Results flagged for a closer look

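The genotype effect on Met-CAT-4-1 differed between tissues, cerebellum minus cerebrum, by 1.28 on the log2 scale for its level and by 1.24 for its share of the family. Both were past the threshold in the joint fit. The level did not pass with spike-in scaling, where no tRNA passed as higher. The share did not pass with limma or without Met-CAT-1 in the family. Depth nearly followed genotype in cerebellum and was not in the joint fit, so its part was not tested.

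Of 68 sets of library values from 1 group that were checked for a library far from the others, 6 had one, and chance alone gives about 1 in 20 sets. Cerebrum mutant 1 had a family percentage of nuclear tRNA counts of 1.45%, where the other cerebrum mutants had 2.62% to 2.68%. Its Met-CAT-2 share was 19.3%, against 21.5% to 21.8% in the other mutants. Cerebellum mutant 3 had 392 CPM of Met-CAT-4-1, against 170 to 219 CPM in the other mutants. The same library had 5.05 family counts per spike-in count, against 2.66 to 3.13. Cerebrum wildtype 4 had 10.95 family counts per spike-in count, against 6.37 to 7.85 in the other wildtype libraries. Cerebellum wildtype 3 had a Met-CAT-1 share of 73.5%, against 69.3% to 70.7%.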

How the results depend on the processing

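Met-CAT-4-1 passed as lower in cerebrum under all 11 alternatives (log2 fold change −2.15 to −1.69). Isodecoders passing as lower in cerebrum numbered 2 to 5, where 11.1% to 53.4% of all tRNAs tested did. The highest count, 5, and the highest share came with mitochondrial total scaling. In cerebellum 2 passed as lower with spike-in scaling, where 41.1% of 202 tRNAs did, and none with the other 11 alternatives. For the difference between genotype effects, 2 isodecoders passed with DESeq2, 3 with the replicate block and 0 with spike-in scaling, where 7.84%, 8.33% and 0% of 204 tRNAs passed as higher. Between wildtype tissues 1 passed as higher with DESeq2, RLE size factors or the block, 2 with wildtype groups only and 3 with library totals, where 34.8% to 41.7% of 204 tRNAs passed as higher; 5 passed as lower with spike-in scaling, where 67.6% did. Shares lower in cerebrum numbered 1 with limma, where 13.5% of 178 were, or without Met-CAT-1 in the family, where 13% of 177 were. Limma called 2 higher, where 8.99% of 178 were. The share's difference between genotype effects passed for 0 isodecoders with limma or without Met-CAT-1 and 2 with the block. In the fit reported above, 3.45% of 174 isodecoders passed for that difference. Without Met-CAT-1, 1 share passed as lower in cerebellum, where 1.73% of 173 did in the fit reported above. The cause of these shifts was not tested.

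Of the other alternatives' values, 44 lay on the other side of 0 and 7 of these passed. With spike-in scaling the wildtype tissue differences were −0.68 (family total), −0.66 (Met-CAT-1), −0.68 (Met-CAT-2), −0.86 (Met-CAT-3-1), −0.45 (Met-CAT-4-1, not passing) and −0.77 (Met-CAT-5-1). Spike-in scaling also gave −0.21 (family total) and −0.018 (Met-CAT-2) for the difference between genotype effects. In cerebellum it gave −0.53 (family total), −0.32 (Met-CAT-2), −0.37 (Met-CAT-3-1), −0.23 (Met-CAT-5-1) and −0.55 (Met-CAT-6-1), and in cerebrum −0.25 (Met-CAT-1) and −0.31 (Met-CAT-2). Mitochondrial scaling gave −0.24 (family total), −0.037 (Met-CAT-2), −0.082 (Met-CAT-3-1) and −0.25 (Met-CAT-6-1) in cerebellum, and −0.32 (Met-CAT-1) and −0.38 (Met-CAT-2, passing) in cerebrum, where the family total was −0.38. The cerebellum family total, 0.00 with TMM, was −0.062 with depth class, −0.0018 with DESeq2 and with RLE size factors, and −0.040 with limma-voom. Met-CAT-1 in cerebellum was 0.015 with DESeq2 and RLE, 0.013 with a mean count of at least 50 and 0.027 with nuclear tRNAs only, where the cerebrum family total was 0.011. Met-CAT-2 in cerebrum was −0.012 with library totals and limma-voom and −0.045 with sex as a covariate. Met-CAT-6-1 in cerebellum was −0.029 with depth class and −0.048 with limma-voom. Limma's share values were 0.55 (Met-CAT-2, passing) and 0.14 (Met-CAT-5-1) in cerebrum and −0.30 (Met-CAT-2) for the difference between genotype effects. Without Met-CAT-1 the Met-CAT-2 share was at 0.15 in cerebrum and −0.12 for that difference, and the Met-CAT-3-1 share at −0.011 in cerebellum. The wildtype tissue difference of the family total passed with library totals (0.49) and wildtype groups only (0.32).

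Same-numbered mutant and wildtype libraries deviated together with r of −0.29 to 0.56 in cerebrum and −0.016 to 0.18 in cerebellum, and libraries across tissues with −0.18 to 0.26 in mutants and −0.017 to 0.45 in wildtype. The labels do not say whether a number marks 1 animal, and the tests above treated all libraries as unpaired. If numbers shared across tissues mark the same animals, the tissue tests above ignore a pairing. Same-numbered libraries of a genotype had the same sex in both tissues, and across tissues 4 of 6 wildtype and 0 of 4 mutant cerebrum libraries correlated best with their own number; within tissues 2 of 4 and 0 of 5 mutants did. With the replicate block the wildtype tissue difference passed for the family total (0.25) and Met-CAT-4-1 (0.46), and the difference between genotype effects passed for Met-CAT-3-1 (0.87) and Met-CAT-6-1 (0.95) beside Met-CAT-4-1 (1.23). The Met-CAT-6-1 share passed as lower in wildtype cerebellum than in wildtype cerebrum (−0.56). For mutant minus wildtype, values on the other side of 0 were −0.0098 (family total) and −0.044 (Met-CAT-6-1) in cerebellum and −0.094 (Met-CAT-2) in cerebrum.

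Leaving out each library in turn, 1 to 3 isodecoders passed as lower in cerebrum, 0 to 1 as lower and 0 to 3 as higher in cerebellum, 0 to 1 as higher between tissues and 1 to 3 as higher for the difference between genotype effects. Shares passing as lower numbered 1 to 3 in cerebrum, 0 to 1 in cerebellum and 0 to 1 between tissues. In these cerebrum fits 10.6% to 13% of all tRNAs and 10.7% to 15.2% of all shares passed as lower. With all libraries, 1.98% of 202 tRNAs passed as lower and 0.495% as higher in cerebellum. The fit without cerebellum mutant 5, which gave the 3 passing as higher, had a larger share of all tRNAs passing as higher, as given above. Of 204 tRNAs, 33.3% passed as higher between tissues and 4.9% for the difference between genotype effects. Of shares, 1.73% of 173 passed as lower in cerebellum and 9.77% of 174 between tissues. These percentages with all libraries are not those of the fits with a library left out, which may differ. The family total ran from −0.15 to 0.064 in cerebrum, −0.11 to 0.16 in cerebellum, 0.19 to 0.32 between tissues (passing without cerebellum mutant 2 or 5) and −0.023 to 0.24 for the difference between genotype effects. Values that crossed 0 were those of Met-CAT-1 (−0.13 to 0.11) and Met-CAT-6-1 (−0.10 to 0.24) in cerebellum, Met-CAT-2 in cerebrum (−0.078 to 0.20), Met-CAT-3-1 between tissues (−0.021 to 0.10) and Met-CAT-1 for the difference between genotype effects (−0.23 to 0.019). Shares that crossed 0 were those of Met-CAT-1 (−0.0028 to 0.016), Met-CAT-2 (−0.0069 to 0.045) and Met-CAT-5-1 (−0.14 to 0.022) between tissues, Met-CAT-2 in cerebrum (−0.015 to 0.030) and Met-CAT-6-1 in cerebellum (−0.11 to 0.040). Depth limits Met-CAT-5-1 and Met-CAT-6-1, which had at most 145 counts in a library.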
